A study of Homo sapiens with 5 samples.

Results

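ATF4 is the transcription factor through which cells answer a shortage of amino acids, and the genes described here are ATF4 itself, its reported targets and the enzymes and transporters that supply amino acids under its control. The set holds 35 genes, named by symbol as reported parts of the pathway, out of 60651 genes listed in each deposited file. All 35 matched an identifier and all 35 passed the filter on low counts that left 16341 genes for testing. They were measured in COLO 320DM, an established human colorectal adenocarcinoma line, in a study that asks how the deubiquitinase USP17 promotes colorectal tumours. Poly(A) RNA was sequenced in 5 libraries. In the 3 USP17 siRNA libraries the cells had received siIDT, sino4 or siSMPLT, and in the 2 control libraries siL2 or siNT. The series text calls siNT and L2 non-silencing, which leaves siIDT, sino4 and siSMPLT as the duplexes against USP17. Each duplex had 1 library, so p-values measure the spread among 3 libraries that differ in duplex and transfection, and no duplex or control was repeated.

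When amino acids run short or unfolded protein builds up, the kinases GCN2, PERK, PKR and HRI phosphorylate the initiation factor eIF2 on its alpha subunit. General translation then slows, while ATF4 mRNA is translated more. ATF4 pairs with C/EBP proteins, binds an element that joins a C/EBP site to an ATF site, and raises genes for serine, asparagine and proline synthesis, for amino acid uptake and for tRNA supply. The growth kinase mTORC1 also raises ATF4 output, and several targets, among them SESN2, DDIT4 and TRIB3, act back on mTORC1 or on ATF4. Tumour cells are known to draw on the same programme to feed biosynthesis.

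The composite element was looked for in the promoters of the members as TGATGNAA, where N is any base, on both strands (TTNCATCA is its reverse complement), in RefSeq sequence of GRCh38.p14 reaching from 250 bases before to 50 bases after each annotated start. A promoter was found in that table for 27 members, and 8 of these (29.63%) held a match, against 2.81% of the 11204 tested genes and 4.46% of all 27305 genes with a promoter there. A match is a run of letters and not a shown binding site. Each of the 8 matches is given here with up to 11 bases on either side, 5′ to 3′ on the gene's strand, with the matching bases in capitals. These are the members in which letters fitting the element were found.
ATF3, chr1:212565205-212565234 (+): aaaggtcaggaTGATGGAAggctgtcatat
CEBPG, chr19:33374060-33374089 (+): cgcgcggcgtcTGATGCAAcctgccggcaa
CHAC1, chr15:40953251-40953280 (+): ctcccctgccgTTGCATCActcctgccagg
ASNS, chr7:97872458-97872487 (-): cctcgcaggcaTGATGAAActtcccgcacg
SLC7A1, chr13:29595663-29595692 (-): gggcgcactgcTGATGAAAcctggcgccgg
SLC3A2, chr11:62881725-62881748 (+): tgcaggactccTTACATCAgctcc
SLC1A5, chr19:46784893-46784922 (-): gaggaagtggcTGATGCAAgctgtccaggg
SLC1A4, chr2:64989381-64989410 (+): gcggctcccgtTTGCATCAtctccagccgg
The match began 191 bases before the RefSeq start in ATF3, 209 in CHAC1, 97 in SLC1A5, 68 in ASNS, 42 in CEBPG and 7 in SLC1A4, and lay after it, at bases 8 and 38, in SLC7A1 and SLC3A2. The 250 bases before the RefSeq start are shown whole for CHAC1, which had the largest log2 fold change of all members against siNT, and for ASNS, a textbook ATF4 target. These starts lie inside the genes as GENCODE release 29 draws them, by 509 bases in CHAC1 and 134 in ASNS, so the CHAC1 stretch lies wholly and the ASNS stretch partly within the annotated gene, and the ASNS stretch belongs to 1 of its 2 RefSeq starts in the table. Of the other matches, those in CEBPG, SLC1A4, SLC1A5, SLC3A2 and SLC7A1 also lie inside the gene as drawn in GENCODE release 29. SLC3A2, for instance, begins there at 62856102. The ATF3 match lies before its gene.
CHAC1, chr15:40953221-40953470 (+): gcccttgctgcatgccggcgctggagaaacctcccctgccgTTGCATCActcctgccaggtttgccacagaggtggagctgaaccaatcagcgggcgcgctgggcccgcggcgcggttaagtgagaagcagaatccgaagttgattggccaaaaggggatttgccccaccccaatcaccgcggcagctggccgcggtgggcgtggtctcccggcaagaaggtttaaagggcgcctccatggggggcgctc
ASNS, chr7:97872409-97872658 (-): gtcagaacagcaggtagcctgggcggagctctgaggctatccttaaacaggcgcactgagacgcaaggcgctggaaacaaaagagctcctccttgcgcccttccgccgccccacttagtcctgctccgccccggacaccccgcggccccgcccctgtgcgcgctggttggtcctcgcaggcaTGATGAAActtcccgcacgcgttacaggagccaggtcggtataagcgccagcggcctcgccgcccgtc
No promoter entry was found for EIF4EBP1, GPT2, PSPH, PYCR1, NUPR1, SHMT2, ALDH1L2 and SLC7A11.

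The libraries held 31704821 to 36276143 reads in genes. Reads on no gene's own strand were 7.05% to 7.49% of all reads with USP17 siRNA, 6.58% with siL2 and 6.37% with siNT. The targeted family, 30 listed USP17L genes, had 0 reads on its own strand in all 5 libraries. The authors' RSEM counts, which divide multi-mapping reads among genes, were also 0 for it in all 5 libraries, the controls included. Knockdown could therefore not be checked from these data. Of 14 colon epithelium markers 7 passed the filter, led by CDX2. CEACAM5 and MUC2 were at 0 in every library, and CDH1 and KRT19 had at most 0.175 CPM, the unit of read counts after scaling for library size. Summed over the list, colon markers came to 1815 to 1875 CPM with USP17 siRNA, 2271 CPM with siL2 and 2193 CPM with siNT, most of it CDX2, which was lower against both controls. CDH17 and GPA33 were higher with USP17 siRNA against both, at 49.9 and 3.56 CPM on average, against 27.11 and 1.26 CPM with siL2 and 27.29 and 1.27 CPM with siNT, and KRT20 was higher against siNT. Neuroendocrine markers summed to 6.75 to 9.15 CPM with USP17 siRNA, 6.80 CPM with siL2 and 11.8 CPM with siNT, with INSM1 at 0 throughout. Leukocyte markers summed to 48.2 to 53.3 CPM with USP17 siRNA, 45.6 CPM with siL2 and 56.7 CPM with siNT, nearly all of it PTPRC, while CD3D was at 0 throughout. Fibroblast markers came to 43.5 to 56.9 CPM with USP17 siRNA, 53.8 CPM with siL2 and 60.5 CPM with siNT, with at most 1 read on COL1A2 and DCN. No endothelial marker passed the filter. The part of these differences, and of the reads outside genes, in the results on the members was not tested.

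The siNT library stood apart from the other 4 in this pathway, and this bears on every result that follows. All 3 USP17 siRNA libraries lay below it for 33 of the 35 members, against 36.5% of all tested genes, and in these 33 it was the highest of the 5 libraries, as it was for 25.2% of all tested genes. It was the lowest library for ALDH1L2 and CBS. The siL2 library lay above all 3 USP17 siRNA libraries for 24 members, against 35.9% of all tested genes, within their range for 7 and below it for 4. USP17 siRNA was therefore set against each control on its own, in a model in which the spread comes from the 3 USP17 siRNA libraries and each lone control is assumed to vary as they do.

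**Figure D1:**
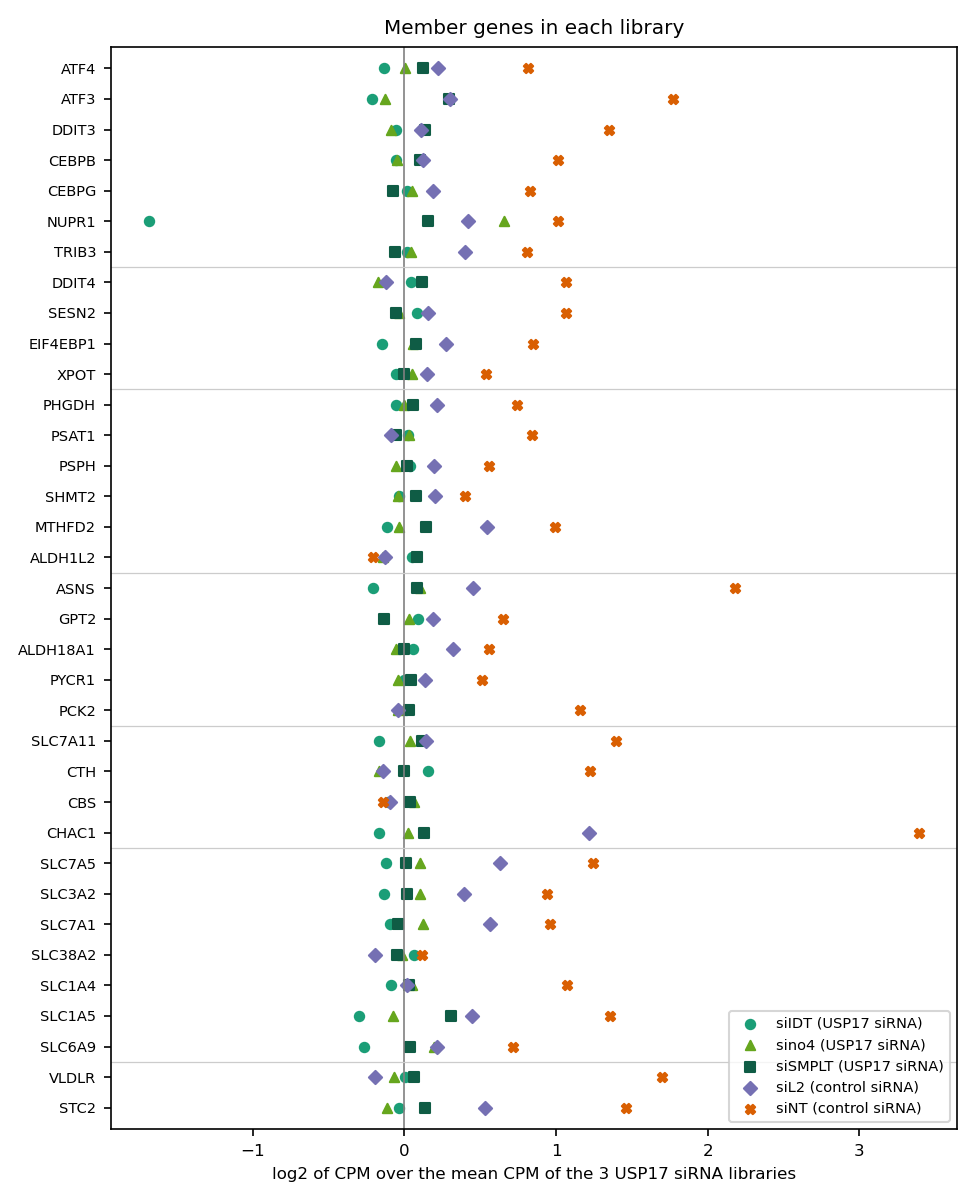
Level of each of the 35 member genes in the 5 libraries, as log2 of its CPM over the mean CPM of the 3 USP17 siRNA libraries, with 1 point per library and genes grouped by role. The siNT points lie farthest right for 33 genes, while most siL2 points lie close to the 3 USP17 siRNA points, with CHAC1 at the far end for both controls.

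Against siNT, 30 of the 35 members were lower with USP17 siRNA and none was higher, in edgeR's quasi-likelihood test at an adjusted p of 0.05. Over all tested genes 8.65% were lower in that comparison and 6.14% higher. The members' median log2 fold change was -0.96, against 0.01 for all tested genes. The 5 members not called were NUPR1, ALDH1L2, CBS, SLC38A2 and SLC6A9. No member was higher at an unadjusted p under 0.05 either, or with DESeq2's Wald test or limma-voom. Leaving out siIDT, sino4 or siSMPLT in turn gave 30 to 31 members lower. Genes called in all, in either direction, then ranged from 1204 to 4748, beside 2416 with all libraries. Fewer cells of a kind and less RNA per cell cannot be told apart in bulk RNA.

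Against siL2, 8 members were lower with USP17 siRNA and none was higher, beside 7.61% lower and 8.45% higher over all tested genes. At an unadjusted p under 0.05, 15 members were lower and 1 higher, beside 5246 of the 16341 tested genes in either direction. Neither DESeq2's Wald test nor limma-voom called a member higher. The median log2 fold change of the members was -0.20, and of all tested genes 0.01. The 8 were TRIB3, MTHFD2, ALDH18A1, CHAC1, SLC7A5, SLC3A2, SLC7A1 and STC2, all of them also lower against siNT. Of the 8 members whose promoter held the element's letters, CHAC1, SLC7A1 and SLC3A2 were among them, and of the 19 with a promoter but no match 5 were. This split depended on the counts used. With RSEM counts ASNS, which held a match, was also called lower against siL2 (edgeR adjusted p 0.0357). TRIB3 (0.0636) and STC2 (0.0717), which held none, were then not called. Against siNT all 8 with a match were lower, and 16 of the 19 without. The count against siL2 depended on single libraries, with 5 members called lower without sino4, and 14 lower and 1 higher without siSMPLT. Genes called in all, in either direction, moved too, at 1304 without sino4 and 4721 without siSMPLT, beside 2624 with all libraries. When genes with a read in any library were all tested, 2 members (CHAC1 and SLC7A5) and 591 genes in all were called.

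The controls themselves also differed in many of the members. With siNT over siL2, 19 members were higher and none was lower in edgeR's test, against 2.04% of all tested genes higher and 0.508% lower, and the members' median log2 fold change was 0.59. This contrast is also the test of whether the USP17 siRNA result differs by control, since both comparisons share the USP17 siRNA libraries. Of the 22 members called lower against siNT alone, 16 were among those 19, and for the other 6 (EIF4EBP1, PSPH, SHMT2, GPT2, PYCR1 and SLC1A5) a difference between the controls was not called. The contrast of siNT over siL2 compares 1 library with 1. With RSEM counts 15 of the 19 were called, without ATF4, XPOT, SLC7A5 and STC2, and a stricter filter also left 15. None of the 19 was called when genes with a read in any library were all tested (edgeR adjusted p 0.0558 to 0.237). No gene at all was called in this contrast under that setting. No member was lower with siNT at an unadjusted p under 0.05.

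**Figure D2:**
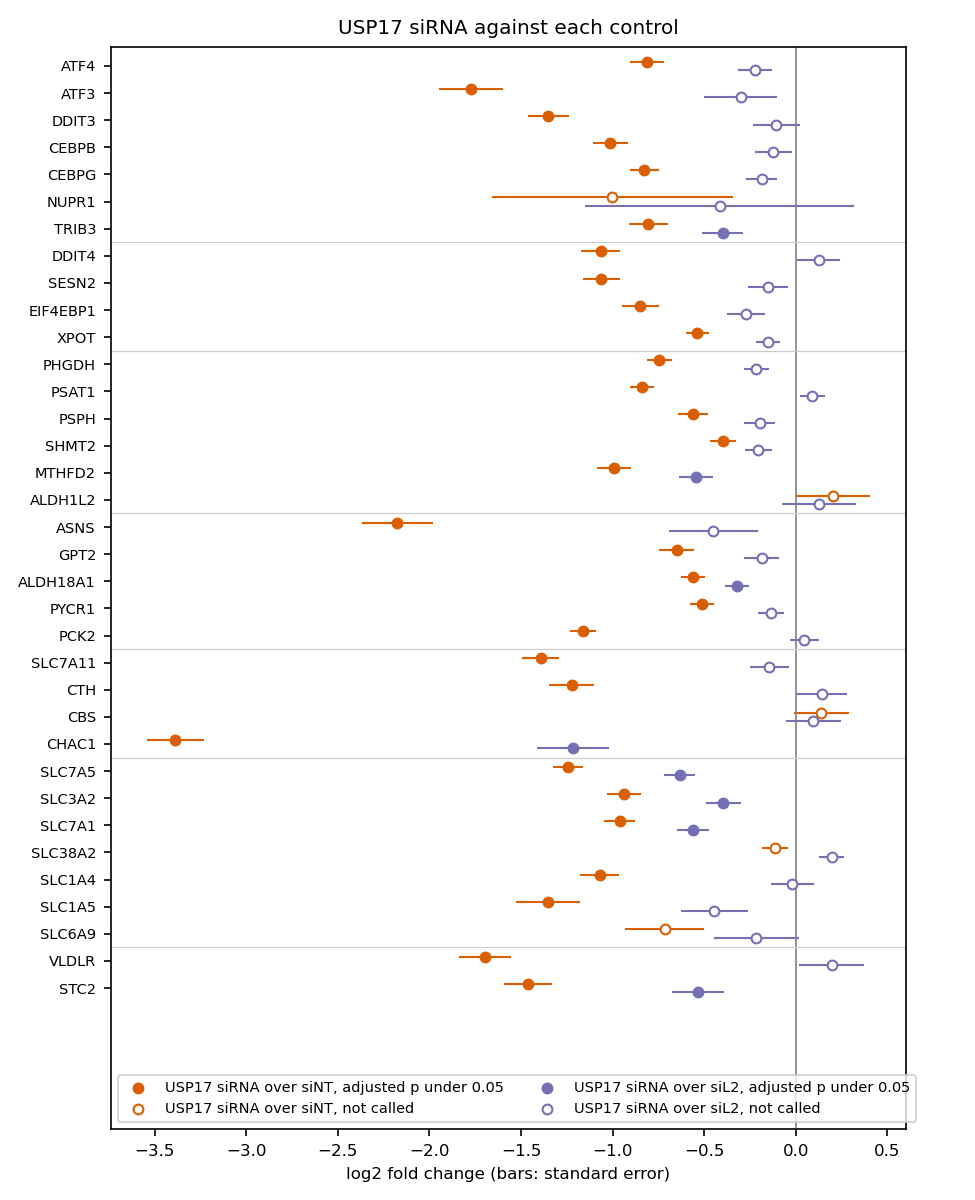
Log2 fold change of each member with USP17 siRNA (n = 3) over siNT (n = 1, orange) and over siL2 (n = 1, purple), with standard errors as bars and filled points for genes past an adjusted p of 0.05. Filled orange points mark 30 genes and filled purple points 8, and orange points lie left of purple ones except for ALDH1L2 and CBS.

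**Figure D3:**
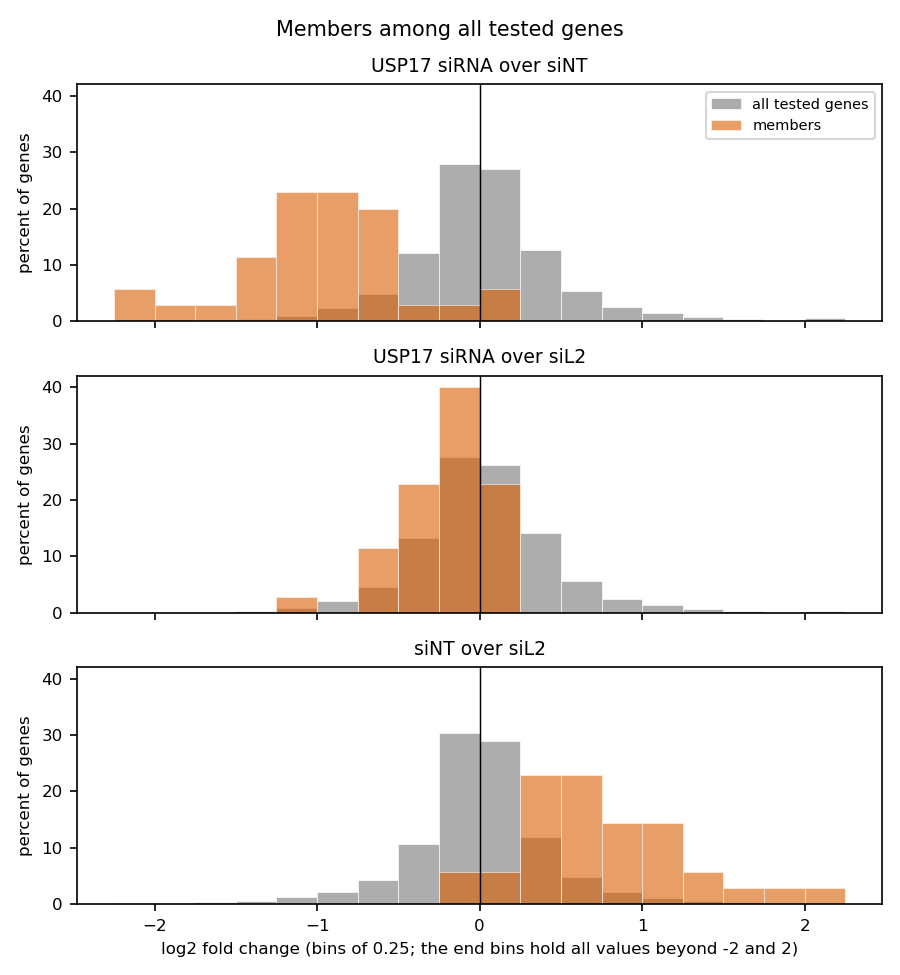
Share of genes in each bin of log2 fold change, members in orange over all 16341 tested genes in grey, for USP17 siRNA over siNT, USP17 siRNA over siL2 and siNT over siL2. The members sit left of the grey distribution in the upper panel (median -0.96), slightly left in the middle one (-0.20) and right of it in the lower one (0.59).

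Among the transcription factors, ATF4 mRNA measured 206, 227 and 246 CPM with siIDT, sino4 and siSMPLT, against 264 CPM with siL2 and 398 CPM with siNT. All 3 USP17 siRNA libraries were below both controls, and siL2 lay much nearer to them than siNT did. The log2 fold change was -0.81 ± 0.09 (SE) over siNT (edgeR adjusted p 0.00236) and -0.22 ± 0.10 (SE) over siL2 (edgeR adjusted p 0.148), and siNT exceeded siL2 by 0.59 ± 0.12 (SE), with an edgeR adjusted p of 0.0425. The difference between the controls lost its call without sino4 (edgeR adjusted p 0.0583) and with RSEM counts (0.0724).

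ATF3, a stress-induced factor of the same family, had 4.83, 5.11 and 6.85 CPM in the siIDT, sino4 and siSMPLT libraries, 6.89 CPM in siL2 and 19.1 CPM in siNT. It fell against siNT by 1.77 on the log2 scale (edgeR adjusted p 0.00143), while siSMPLT and siL2 nearly coincided. DDIT3 encodes CHOP, which acts with ATF4 and promotes death under lasting stress. Its levels were 11.6, 11.3 and 13.2 CPM with siIDT, sino4 and siSMPLT, against 13.0 CPM with siL2 and 30.7 CPM with siNT. The siL2 value lay inside the USP17 siRNA range, and the log2 fold change was -1.35 ± 0.11 (SE) over siNT and -0.11 ± 0.13 (SE) over siL2 (edgeR adjusted p 0.00106 and 0.609). MARS and MBD6 overlap DDIT3 on the opposite strand, and AC022506.1 and MIR616 overlap it on its own. The counter gave AC022506.1 0 reads in every library, and RSEM gave it 11.6, 16.9 and 21.1 expected counts with siIDT, sino4 and siSMPLT, 14.6 with siL2 and 46.6 with siNT, while MIR616 had 1 to 8 reads.

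The C/EBP partners were likewise highest in siNT. CEBPB averaged 24.5 ± 1.54 CPM (SD, n = 3) with USP17 siRNA, against 26.7 CPM with siL2 and 49.4 CPM with siNT, and CEBPG, which forms heterodimers with ATF4, averaged 67.8 ± 3.07 CPM (SD, n = 3) with USP17 siRNA, 77.1 CPM with siL2 and 120.3 CPM with siNT. Both fell against siNT (-1.01 ± 0.10 (SE) and -0.83 ± 0.08 (SE); edgeR adjusted p 0.00131 and 0.00133), and neither was called against siL2. TRIB3, a pseudokinase that restrains ATF4, fell against both controls, at 11.8, 12.1 and 11.2 CPM with siIDT, sino4 and siSMPLT, against 15.4 CPM with siL2 and 20.5 CPM with siNT. Its log2 fold change over siL2 was -0.40 ± 0.11 (SE), with an edgeR adjusted p of 0.0435, and that call was lost without sino4 (0.121), with RSEM counts (0.0636) and with DESeq2's Wald test (0.125). NUPR1, a small stress-induced chromatin protein, was near the limit of detection, with 2, 10 and 7 reads in siIDT, sino4 and siSMPLT, 9 reads in siL2 and 14 reads in siNT, so no difference was detectable at this depth.

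The regulators of mTORC1 and translation were lower against siNT in all 4 cases and in none against siL2. Against siL2, 2 of them had an unadjusted p under 0.05, beside 5246 of the 16341 tested genes. DDIT4, an inhibitor of mTORC1 also called REDD1, had 53.9, 46.4 and 56.6 CPM with siIDT, sino4 and siSMPLT, 48.0 CPM with siL2 and 109.5 CPM with siNT. Its level was about the same in 4 libraries and higher in siNT, with a log2 fold change of -1.07 ± 0.11 (SE) over siNT (edgeR adjusted p 0.00154) and 0.12 ± 0.12 (SE) over siL2 (edgeR adjusted p 0.506). SESN2, the leucine sensor that holds mTORC1 down, was likewise highest in siNT, at 15.02 ± 0.799 CPM (SD, n = 3) with USP17 siRNA, 16.7 CPM with siL2 and 31.4 CPM with siNT (-1.06 over siNT, edgeR adjusted p 0.00133). EIF4EBP1, the repressor 4E-BP1 that blocks cap-dependent translation, averaged 54.6 ± 4.61 CPM (SD, n = 3) with USP17 siRNA, against 65.9 CPM with siL2 and 98.3 CPM with siNT. XPOT, which carries tRNA out of the nucleus, had 627, 674 and 651 CPM in siIDT, sino4 and siSMPLT, 723 CPM in siL2 and 945 CPM in siNT. Its log2 fold change over siNT was -0.54 ± 0.06 (SE), with an edgeR adjusted p of 0.00263.

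The enzymes that make serine and pass its carbon to folate were lower against siNT in 5 of 6 cases. PHGDH, the entry step of serine synthesis, had 273, 284 and 296 CPM with siIDT, sino4 and siSMPLT, 330.1 CPM with siL2 and 477 CPM with siNT, a log2 fold change of -0.74 ± 0.07 (SE) over siNT (edgeR adjusted p 0.00113). PSAT1, the aminotransferase that follows it, averaged 325 ± 11.1 CPM (SD, n = 3) with USP17 siRNA, 305 CPM with siL2 and 581 CPM with siNT. In PSAT1, siL2 was the lowest of the 5 libraries, and the log2 fold change was -0.84 ± 0.06 (SE) over siNT and 0.09 ± 0.07 (SE) over siL2 (edgeR adjusted p 0.000836 and 0.41). PSPH, the final phosphatase of the route, averaged 45.6 ± 1.54 CPM (SD, n = 3) with USP17 siRNA, 52.3 CPM with siL2 and 67.2 CPM with siNT.

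MTHFD2, the mitochondrial folate dehydrogenase often raised in tumours, was lower against each control. It measured 386, 408 and 461 CPM with siIDT, sino4 and siSMPLT, against 610 CPM with siL2 and 832 CPM with siNT. No USP17 siRNA library reached either control, and the log2 fold change was -0.99 ± 0.09 (SE) over siNT (edgeR adjusted p 0.00115) and -0.55 ± 0.09 (SE) over siL2 (edgeR adjusted p 0.00809). SHMT2, which splits serine to glycine in mitochondria, had the smallest fall of those called against siNT, -0.40 ± 0.07 (SE), with 301 ± 14.4 CPM (SD, n = 3) under USP17 siRNA, 347 CPM under siL2 and 397 CPM under siNT. Its edgeR adjusted p was 0.0111, or 0.0649 when genes with a read in any library were all tested. ALDH1L2, the mitochondrial enzyme that oxidises formyl folate, did not follow the others, at 2.91, 2.54 and 2.97 CPM with siIDT, sino4 and siSMPLT, 2.57 CPM with siL2 and 2.44 CPM with siNT, and was called against neither control.

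ASNS, asparagine synthetase and a textbook ATF4 target, gave few reads in the table used for testing, 35, 43 and 42 reads in siIDT, sino4 and siSMPLT, 58 reads in siL2 and 198 reads in siNT. The annotation places AC079781.5 on the same strand across ASNS, and a counter of this kind leaves out reads that fall in both genes. RSEM, which shares such reads out, gave 65.3, 57.7 and 67.0 CPM with siIDT, sino4 and siSMPLT, 83.9 CPM with siL2 and 215 CPM with siNT. In both tables siNT was far above the other 4 libraries. The log2 fold change over siNT was -2.18 ± 0.20 (SE) from read counts and -1.76 ± 0.09 (SE) from RSEM counts (edgeR adjusted p 0.00111 and 0.00213). Over siL2 it was -0.45 ± 0.24 (SE) from read counts (edgeR adjusted p 0.243) and -0.41 ± 0.10 (SE) from RSEM counts, where it passed the threshold (edgeR adjusted p 0.0357).

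The other enzymes of this group were PCK2, GPT2, ALDH18A1 and PYCR1. PCK2, the mitochondrial phosphoenolpyruvate carboxykinase, was the member that varied least among the USP17 siRNA libraries (coefficient of variation 2.56%), at 63.5, 61.2 and 64.3 CPM with siIDT, sino4 and siSMPLT, 61.1 CPM with siL2 and 141 CPM with siNT. Only siNT departed from a common level, and the log2 fold change was -1.16 ± 0.07 (SE) over siNT and 0.05 ± 0.08 (SE) over siL2 (edgeR adjusted p 0.000519 and 0.735). ALDH18A1, which opens proline synthesis from glutamate, fell against both controls, at 352, 326 and 338 CPM with siIDT, sino4 and siSMPLT, 423 CPM with siL2 and 499 CPM with siNT. Its log2 fold change over siL2 was -0.32 ± 0.07 (SE), with an edgeR adjusted p of 0.017, or 0.0681 without sino4. PYCR1, which closes the proline route, averaged 184 ± 5.51 CPM (SD, n = 3) with USP17 siRNA, 202 CPM with siL2 and 263 CPM with siNT. GPT2, the mitochondrial alanine aminotransferase, averaged 94.4 ± 7.48 CPM (SD, n = 3) with USP17 siRNA, 107 CPM with siL2 and 148 CPM with siNT. Both fell against siNT alone (-0.51 and -0.65), and GPT2 missed the threshold when genes with a read in any library were all tested (edgeR adjusted p 0.0552).

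CHAC1, which degrades glutathione and lies on chromosome 15 from 40952962 to 40956519 (GRCh38, plus strand), had the largest difference of all members against either control. It measured 1.19, 1.36 and 1.47 CPM with siIDT, sino4 and siSMPLT, against 3.12 CPM with siL2 and 14.1 CPM with siNT. All 3 USP17 siRNA libraries were below siL2, and siL2 was far below siNT. The log2 fold change was -3.39 ± 0.16 (SE) over siNT (edgeR adjusted p 0.00022) and -1.22 ± 0.20 (SE) over siL2 (edgeR adjusted p 0.00679). Between the controls, siNT exceeded siL2 by 2.17 ± 0.20 (SE) on the log2 scale (edgeR adjusted p 0.00317).

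SLC7A11, the cystine importer xCT that feeds glutathione synthesis, had 80.3, 92.4 and 97.5 CPM with siIDT, sino4 and siSMPLT, 99.5 CPM with siL2 and 236 CPM with siNT. Its log2 fold change was -1.39 ± 0.10 (SE) over siNT and -0.14 ± 0.11 (SE) over siL2 (edgeR adjusted p 6e-04 and 0.397). SLC7A11-AS1, on the opposite strand, had 42, 32 and 44 reads with siIDT, sino4 and siSMPLT, 92 with siL2 and 127 with siNT, while SLC7A11 itself had 2624, 2984 and 3120 reads with siIDT, sino4 and siSMPLT, 3409 reads with siL2 and 8351 reads with siNT. CTH, which releases cysteine from cystathionine, averaged 16.7 ± 1.84 CPM (SD, n = 3) with USP17 siRNA, 15.2 CPM with siL2 and 39.0 CPM with siNT, again with siL2 inside the USP17 siRNA range. CBS, the enzyme before CTH, did not share the pattern, at 5.84, 6.60 and 6.47 CPM with siIDT, sino4 and siSMPLT, 5.90 CPM with siL2 and 5.72 CPM with siNT. CBS has a near-identical copy, CBSL, and the read counts leave out reads that map to both. RSEM gave it 156, 162 and 166 CPM with siIDT, sino4 and siSMPLT, 167 CPM with siL2 and 152 CPM with siNT, and the split between the copies is uncertain.

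**Figure D4:**
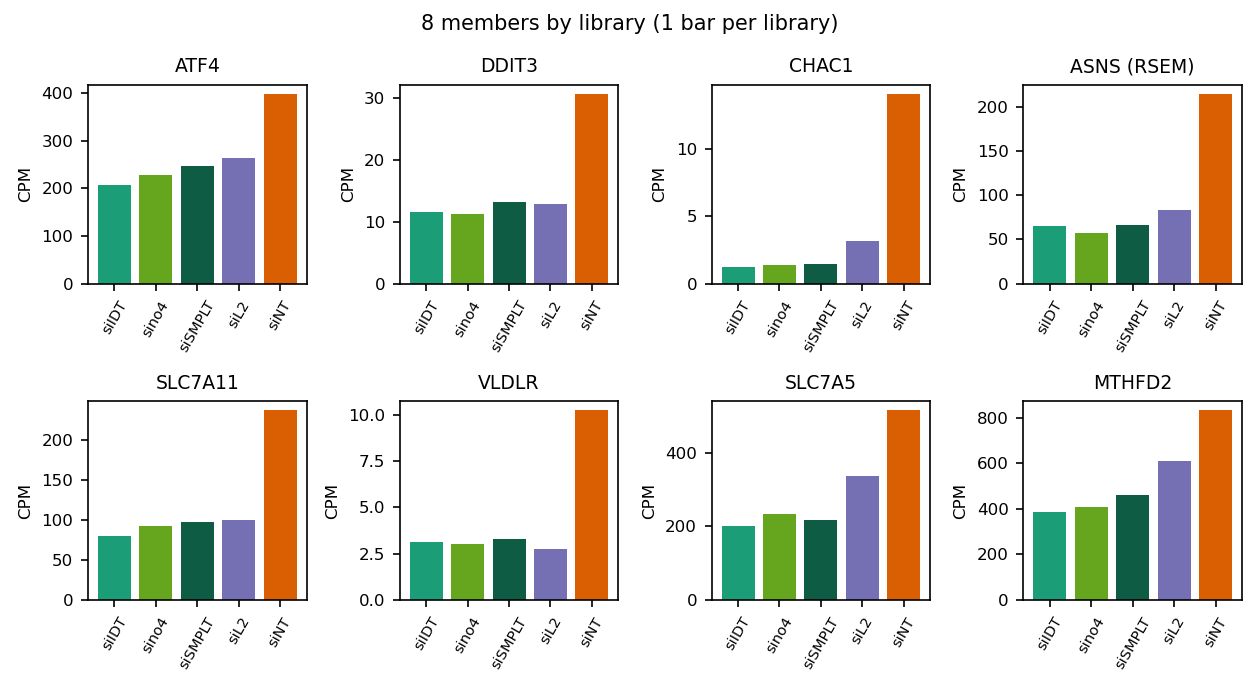
CPM of 8 members in each library (RSEM counts for ASNS, read counts for the others), with 1 bar per library and each vertical axis starting at 0. In SLC7A5, MTHFD2 and CHAC1 both controls stand above the 3 USP17 siRNA libraries, while in DDIT3, SLC7A11 and VLDLR siNT alone stands clear of the rest.

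Of the 7 other transporters among the members, 5 were lower against siNT and 3 of these also against siL2. SLC7A5, the light chain of the leucine transporter LAT1, had 199.6, 233 and 218 CPM with siIDT, sino4 and siSMPLT, against 337 CPM with siL2 and 514 CPM with siNT. All 3 USP17 siRNA libraries were below both controls, with a log2 fold change of -1.24 ± 0.08 (SE) over siNT (edgeR adjusted p 0.000528) and -0.63 ± 0.09 (SE) over siL2 (edgeR adjusted p 0.00372). SLC3A2 encodes the heavy chain that both SLC7A5 and SLC7A11 need at the membrane. It had 86.4, 102 and 96.0 CPM with siIDT, sino4 and siSMPLT, 125 CPM with siL2 and 182 CPM with siNT, and was lower against both, at -0.40 ± 0.10 (SE) over siL2 (edgeR adjusted p 0.0277). SLC7A1, which imports arginine and lysine, had 219.6, 256 and 228 CPM with siIDT, sino4 and siSMPLT, 346 CPM with siL2 and 457 CPM with siNT. Its log2 fold change was -0.96 ± 0.09 (SE) over siNT and -0.56 ± 0.09 (SE) over siL2 (edgeR adjusted p 0.00109 and 0.00585), and the controls differed by 0.40 ± 0.11 (SE) (edgeR adjusted p 0.105). When genes with a read in any library were all tested, SLC3A2 and SLC7A1 lost the call against siL2 (edgeR adjusted p 0.121 and 0.0528), as did MTHFD2 (0.0631).

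SLC1A5, the glutamine transporter ASCT2, spread widely among the duplexes, at 74.9, 87.5 and 114 CPM with siIDT, sino4 and siSMPLT, against 126 CPM with siL2 and 236 CPM with siNT. The siSMPLT value was nearer to siL2 than to siIDT, and the log2 fold change was -1.35 ± 0.17 (SE) over siNT and -0.45 ± 0.18 (SE) over siL2 (edgeR adjusted p 0.00396 and 0.135). Its call against siNT was lost when genes with a read in any library were all tested (edgeR adjusted p 0.0553). Without siSMPLT, SLC1A5 was called against siL2 (edgeR adjusted p 5.53e-10, with 1 residual degree of freedom), as was ATF4 (0.0014). SLC1A4, which carries alanine, serine and cysteine, averaged 11.6 ± 0.584 CPM (SD, n = 3) with USP17 siRNA, 11.7 CPM with siL2 and 24.4 CPM with siNT, and fell against siNT alone (-1.07, edgeR adjusted p 0.00154). SLC38A2, the neutral amino acid transporter SNAT2, was called in no comparison, at 455, 429.9 and 419.6 CPM with siIDT, sino4 and siSMPLT, 379.6 CPM with siL2 and 470.4 CPM with siNT. SLC6A9, a glycine transporter, was scarce, at 2.14 ± 0.339 CPM (SD, n = 3) with USP17 siRNA, 2.48 CPM with siL2 and 3.51 CPM with siNT, and its log2 fold change over siNT of -0.72 ± 0.22 (SE) had an edgeR adjusted p of 0.0606, or 0.011 without siSMPLT.

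The remaining members encode a surface receptor and a secreted protein. VLDLR, a lipoprotein receptor reported as an ATF4 target in stressed cells, had 3.15, 3.01 and 3.28 CPM with siIDT, sino4 and siSMPLT, 2.74 CPM with siL2 and 10.2 CPM with siNT. The siL2 library was the lowest, and siNT stood alone, with a log2 fold change of -1.70 ± 0.14 (SE) over siNT and 0.20 ± 0.18 (SE) over siL2 (edgeR adjusted p 0.00106 and 0.486). STC2, stanniocalcin 2, had 5.97, 5.64 and 6.72 CPM with siIDT, sino4 and siSMPLT, 8.84 CPM with siL2 and 16.8 CPM with siNT. It was lower against both controls (-1.46 and -0.53), and its call against siL2 (edgeR adjusted p 0.0396) was lost without sino4 (0.128), with RSEM counts (0.0717) and with DESeq2's Wald test (0.0984).

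Taken duplex by duplex, without a test, 27 members were at least 1.5-fold lower than siNT with siIDT, 27 with sino4 and 27 with siSMPLT, against 8.87%, 8.36% and 5.64% of all tested genes. Against siL2 the counts were 7, 2 and 3 members with siIDT, sino4 and siSMPLT, against 7.91%, 7.26% and 5.34% of all tested genes. No member was 1.5-fold higher with any duplex against either control, beside 9.47%, 8.59% and 8.48% of all tested genes against siNT and 9.22%, 8.1% and 8.48% against siL2. Median log2 differences were -1.02, -0.83 and -0.90 against siNT with siIDT, sino4 and siSMPLT, and -0.24, -0.19 and -0.15 against siL2. The 3 duplexes were close to each other in most members, with a median coefficient of variation of 7.93%, and siIDT was the lowest of the 5 libraries for 17 of the 35, against 21.1% of all tested genes. NUPR1, with its few reads, varied most (64.1%).

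With siNT and siL2 taken as 1 control group of 2, 12 members were lower with USP17 siRNA and none was higher, against 5.82% of all tested genes lower and 4.64% higher, and no member was higher at an unadjusted p under 0.05. The median member log2 fold change was -0.64. The 12 were the 8 called against siL2 together with EIF4EBP1, PHGDH, SHMT2 and SLC1A5. In this comparison the spread between siNT and siL2 counts as error, and ATF4 (-0.55 ± 0.15 (SE), edgeR adjusted p 0.0568), DDIT3 (-0.86, 0.097) and SLC7A11 (-0.90, 0.0799) missed the threshold. Leaving out a USP17 siRNA library gave 1 member (siIDT left out), 1 (sino4) or 5 (siSMPLT), and leaving out a control gave 30 (siL2) or 8 (siNT).

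Compared per transcript length, in the authors' TPM, which scales for transcript length and library size, the members spanned a wide range. Their median was 45.7, 43.7 and 45.1 TPM in siIDT, sino4 and siSMPLT, 44.7 TPM in siL2 and 87.8 TPM in siNT. MTHFD2 was the most abundant member in siSMPLT, siL2 and siNT (431 TPM, 563 TPM and 773 TPM), and ATF4 in siIDT and sino4 (386 TPM and 385 TPM). NUPR1 or ALDH1L2 was the lowest in every library, between 0.4 and 1.34 TPM.

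Other genes of the pathway were counted in the same way, to be read beside the shares over all tested genes. These were 8.65% lower and 6.14% higher against siNT, and 7.61% lower and 8.45% higher against siL2. For siNT over siL2 they were 0.508% lower and 2.04% higher. At an unadjusted p under 0.05, in either direction, stood 5188 of the 16341 tested genes against siNT and 5246 against siL2. For siNT over siL2 the number was 3033. A list of 20 genes held eIF2 kinases, eIF2, its exchange factor eIF2B and its phosphatases, together with GCN1, IMPACT, EIF2A, DELE1 and OMA1. PPP1R15A, a phosphatase subunit, was also counted among the stress-induced ATF4 targets below. Of the 20 genes, 4 were lower against siNT and none higher (7 and 1 at an unadjusted p under 0.05). Against siL2, 2 were lower and 2 higher. Between siNT and siL2 none was called, with 5 at an unadjusted p under 0.05. EIF2B1, a subunit of eIF2B, was lower against each control, at 110.3, 118 and 125 CPM with siIDT, sino4 and siSMPLT, 161 CPM with siL2 and 157 CPM with siNT. Its controls lay close to each other. Of 30 tested genes of amino acid sensing above mTORC1, 2 were lower and 4 higher against siNT, and 2 lower and 1 higher against siL2, and the 6.67% lower in each is near the share over all tested genes. SESN3, a relative of SESN2, was higher with USP17 siRNA against both, at 243, 240 and 255 CPM with siIDT, sino4 and siSMPLT, 121 CPM with siL2 and 110 CPM with siNT (1.16 ± 0.08 (SE) over siNT and 1.03 ± 0.08 (SE) over siL2; edgeR adjusted p 0.000519 and 0.000513). SESN2 and SESN3 had log2 fold changes of opposite sign against siNT. MIOS, a subunit of the GATOR2 complex, was lower against each control (-0.48 and -0.28), while TSC2, a brake on mTORC1, was higher against siNT (0.37, edgeR adjusted p 0.0277) and had 0.27 over siL2 (edgeR adjusted p 0.0651).

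Among 19 other tested amino acid transporters, 6 were lower against siNT and none higher (9 and 1 at an unadjusted p under 0.05), and 2 were lower and 1 higher against siL2. SLC1A3, a glutamate and aspartate transporter, was lower against each control, at 25.6, 27.8 and 31.9 CPM with siIDT, sino4 and siSMPLT, 46.2 CPM with siL2 and 48.5 CPM with siNT. SLC7A2, a cationic transporter picked after its values were seen, was lower against siNT and higher against siL2, at 156, 157 and 163 CPM with siIDT, sino4 and siSMPLT, 80.3 CPM with siL2 and 196 CPM with siNT. Of 17 other tested enzymes of serine, glycine and folate metabolism, 2 were lower against siNT with none higher (3 and 1 at an unadjusted p under 0.05), and 2 lower and 1 higher against siL2, where 2 of 17 is 11.8%. GLDC, which cleaves glycine, was lower against each (-0.56 over siNT and -0.62 over siL2; edgeR adjusted p 0.0049 and 0.00263). Of 22 other tested enzymes of glutamate, proline, aspartate, arginine and cysteine metabolism, 5 were lower against siNT with none higher (8 and 1 at an unadjusted p under 0.05), and 5 lower and 1 higher against siL2. GSS, glutathione synthetase, and BCAT2, a mitochondrial branched-chain aminotransferase, were lower against both (-0.33 and -0.64 over siL2). GOT2, the mitochondrial aspartate aminotransferase, was lower against siL2 (-0.28, edgeR adjusted p 0.0189) and had -0.21 over siNT (edgeR adjusted p 0.0528).

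Of 21 other reported stress-induced ATF4 targets tested, 5 were lower and 1 higher against siNT, and 2 lower and 3 higher against siL2. With siNT over siL2, 3 were higher, against 2.04% of all tested genes. JDP2, a bZIP repressor, had 8.69, 8.83 and 12.8 CPM with siIDT, sino4 and siSMPLT, 22.4 CPM with siL2 and 42.8 CPM with siNT. It was lower against each control, with a log2 fold change of -2.08 ± 0.18 (SE) over siNT and -1.15 ± 0.19 (SE) over siL2 (edgeR adjusted p 0.00106 and 0.0075). MAP1LC3B, an autophagosome protein, was also lower against both (-0.89 and -0.60), and TXNIP, which restrains glucose uptake, was higher against both (0.37 and 0.62). A last list held genes with CEBP, NFE2L, JUN, FOS, BATF, MAF, ATF or CREB symbols outside the members. Of its 17 tested genes none was called against siNT, where 1 had an unadjusted p under 0.05, and 3 were higher against siL2. With siNT over siL2, 2 of these 17 were higher. So were 2 of the 19 other transporters and 2 of the 22 enzymes of glutamate, proline, aspartate, arginine and cysteine metabolism. In that contrast 1 of the 30 amino acid sensing genes was lower, and no other enzyme of serine, glycine and folate metabolism was called.

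Runs of 7 bases that were picked in these same libraries because genes with them in the 3′ UTR were lower with USP17 siRNA were looked up in the members' annotated 3′ UTRs. ATCACTC occurred in 3 of 35 members (XPOT, SLC7A1 and STC2; 8.57%), against 8.06% of 12471 tested genes with an annotated 3′ UTR. TCACTCA occurred in 8 (ATF3, NUPR1, EIF4EBP1, SLC7A11, CHAC1, SLC7A1, SLC1A5 and STC2; 22.86%), against 12.39%. GATCATC occurred in CTH alone (2.86%), against 6.41%. The 8 carriers of TCACTCA had a median log2 fold change of -1.37 over siNT and -0.43 over siL2, and the other 27 members -0.83 and -0.15. For siNT over siL2 the medians were 0.92 in carriers of TCACTCA and 0.54 in the others. The 3 carriers of ATCACTC had medians of -0.96 over siNT, -0.53 over siL2 and 0.40 for siNT over siL2, beside -0.96, -0.19 and 0.60 in the other 32 members. CTH, the carrier of GATCATC, had -1.22 over siNT, 0.14 over siL2 and 1.37 for siNT over siL2. The members without GATCATC had medians of -0.95, -0.20 and 0.59. Because the runs were picked for lower carriers in these same libraries, lower medians in carriers were favoured by that choice. The shares were not matched for 3′ UTR length, which reached 7859 bases among member carriers (SLC7A11). These medians are descriptions, and the part of the 7-base runs in the members' levels was not tested.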

How the data were processed

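Poly(A) RNA from 5 libraries of COLO 320DM was measured by the authors. Per the submitters' processing notes, bcl2fastq 2.20, STAR 2.7.1a and RSEM 1.3.2 were used with GRCh38, while no source used here gives the annotation release, the read layout or the strand setting. The deposited gene tables hold whole-number read counts in STAR's layout. The authors' RSEM files give expected counts, with multi-mapping reads divided among genes, and TPM. Counts on each gene's own strand were used, with 18.7 to 19.92 times as many reads as the opposite one. Rows that name no gene took 22.81% to 24.44% of reads and entered neither library sizes nor tests. The limit for a gene at 0 is 3 reads (0.0849 to 0.0938 CPM, counting error alone).

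Of 60651 identifiers 60437 had a symbol, and all 248 listed symbols had an identifier. Gene positions and 3′ UTRs are from GENCODE release 29 on GRCh38, and promoters from RefSeq. Counts were fitted in R 4.3.3 with edgeR 4.0.16 (filterByExpr, minimum count 10, minimum total 15, TMM scaling, quasi-likelihood F test, two-sided, Benjamini-Hochberg adjustment over 16341 genes at 0.05). One fit with 3 groups (USP17 siRNA n = 3, siL2 n = 1, siNT n = 1; 2 residual degrees of freedom) gave USP17 siRNA over siNT, USP17 siRNA over siL2 and siNT over siL2, and a fit with 2 groups (3 residual degrees of freedom) gave USP17 siRNA over both controls. The script was tested on simulated data. Single libraries were compared as log2 CPM with a prior count of 2 and a 1.5-fold limit, with no test. RSEM expected counts were rounded to whole numbers. Alternatives were DESeq2 1.42.0 (size factors and Wald test), limma-voom (limma 3.58.1), other filters and thresholds, RSEM counts, the unstranded column and leaving out each library.

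The members and gene lists were chosen with earlier results of these data known. All 35 members are named whatever their values. From the 7 other pathway lists the text names up to 3 genes a list with the smallest p among those called in USP17 siRNA over both controls, and any gene outside that rule is said to be picked after its values were seen.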

Additional observations from a re-analysis of the deposited data

How the results depend on the processing

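Against siNT, 30 members were called lower under DESeq2's size factors and Wald test, limma-voom, RSEM counts, a stricter filter and the unstranded column, and 27 with no filter beyond 1 read in any library. With no such filter the calls against siL2 fell to 2 members and those of siNT over siL2 to 0, and the genes called in all fell to 317 against siNT, 591 against siL2 and 0 for siNT over siL2; the cause was not tested. At an adjusted p of 0.1 there were 3956, 4044, 901 and 3074 genes called against siNT, against siL2, for siNT over siL2 and against both controls, with 24 members lower against both controls and 1 (SLC38A2) higher against siL2. The stricter filter and RSEM counts gave 264 and 258 genes for siNT over siL2, with 15 members higher in each. Against both controls DESeq2's Wald test called 20 members, and limma-voom gave a median of -0.56.

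Leaving out each library in turn gave 30 to 31 members and 1204 to 4748 genes called against siNT, and 5 to 14 members lower, 0 to 1 higher and 1304 to 4721 genes against siL2. For siNT over siL2 it gave 17 to 30 members and 231 to 2077 genes. Against both controls it gave 1 to 30 members, 130 to 2633 genes and medians of -0.96 to -0.20. Without siIDT, sino4 or siSMPLT the fit over 3 groups has 1 residual degree of freedom. At 2-fold in place of 1.5-fold, single libraries had 16 (sino4) and 14 (siSMPLT) members lower than siNT, and 2 (siIDT), 1 (sino4) and 1 (siSMPLT) lower than siL2.

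Signs turned in some members not called. Over siL2, NUPR1 had 0.844 and CBS -0.049 with RSEM counts, SLC1A4 had 0.019 with the unstranded column, and leaving out each library gave -0.502 to 0.006 for NUPR1 and -0.046 to 0.019 for SLC1A4, the upper value without siIDT. Over both controls it gave -0.114 (without siL2) to 0.195 for SLC38A2, and, with the upper value without siNT, -1.067 to 0.123 for DDIT4, -0.839 to 0.088 for PSAT1, -1.162 to 0.044 for PCK2, -1.224 to 0.141 for CTH and -1.699 to 0.196 for VLDLR. No paired analysis was possible because the labels carry no replicate numbers and each duplex had 1 library. Depth limits NUPR1 most (2 to 14 reads), and also ASNS, CHAC1, SLC6A9, ALDH1L2 and VLDLR, each with under 100 reads in some library. Lone controls leave the spread between siNT cultures and between siL2 cultures unmeasured.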

Other observations

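Outside the rule for named genes, 2 enzymes and a secreted peptide of the pathway lists, picked after their values were seen, were higher with siNT than with siL2. ASS1, which makes argininosuccinate for arginine synthesis, had 27.3, 23.9 and 27.9 CPM with siIDT, sino4 and siSMPLT, 28.7 CPM with siL2 and 53.2 CPM with siNT. ARG2, the mitochondrial arginase, had 198, 182 and 197 CPM with siIDT, sino4 and siSMPLT, 187 CPM with siL2 and 270.3 CPM with siNT. ADM2, a peptide hormone, had 0.765, 0.712 and 1.19 CPM with siIDT, sino4 and siSMPLT, 1.14 CPM with siL2 and 4.19 CPM with siNT. With siNT over siL2 the log2 fold changes were 0.89 ± 0.13 (SE) for ASS1, 0.53 ± 0.09 (SE) for ARG2 and 1.88 ± 0.34 (SE) for ADM2 (edgeR adjusted p 0.0168, 0.0286 and 0.0322).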
